A study of Mus musculus with 22 samples.

Results

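The genes described here encode 10 regulators that read mechanical tension in cells: the YAP coactivators (Yap1, Wwtr1), their DNA-binding partners (Tead1, Tead2, Tead3), negative regulators of YAP in the Hippo pathway (Lats2, Amotl2), and serum response factor with its actin-sensing coactivators (Srf, Mkl1, Mkl2). They were taken by name, whatever their values, from a table of 23359 genes. The table gives FPKM, sequenced fragments scaled to transcript length and library size, for 22 poly-A RNA libraries of heart cells from male wild type C57BL/6 mice aged 10 to 14 weeks. Of the 19 cardiac fibroblast libraries, 3 were from sedentary mice, 2 were taken 3 days after a sham operation, 3 were taken at 3 days and 3 at 10 days of TAC, 2 were taken 5 days after MI, and 3 followed 4 days and 3 followed 10 days of swimming. The remaining 3 libraries were cardiomyocytes of sedentary mice. TAC was read as transverse aortic constriction, a surgical pressure overload of the left ventricle, and MI as myocardial infarction, since the labels give the abbreviations alone. The labels do not say whether libraries came from separate animals, so each p-value measures the spread between these samples, which may be technical.

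YAP, encoded by Yap1, and TAZ, encoded by Wwtr1, enter the nucleus when cells spread on stiff matrix, and bind TEAD factors to switch on genes for growth, adhesion and matrix. The kinases LATS1 and LATS2 phosphorylate YAP and TAZ and hold them in the cytoplasm, and angiomotin proteins such as AMOTL2 bind them there. SRF binds CArG boxes in promoters, and its myocardin-related coactivators MRTF-A and MRTF-B (Mkl1 and Mkl2, now named Mrtfa and Mrtfb) are freed to reach it when actin polymerises. Both routes act in cardiac fibroblasts as they turn into contractile myofibroblasts. They are controlled largely by where the proteins sit in the cell, which mRNA levels do not show.

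Promoter stretches are shown for 4 of the 5 members whose 250 bases before the RefSeq start (build GRCm38.p6) hold the binding motif of a factor in the set, on either strand. The TEAD core GGAATG, or CATTCC on the other strand, was in the upstream 250 bases of Yap1, Wwtr1, Tead3 and Amotl2, and in 12.6% of the 32851 promoters of that length. A CArG box, the SRF motif, occurred in 1.47% of those promoters, and Srf held 2 of them. The RefSeq promoter table held 9 of the 10 members, all but Tead1. Neither motif was matched upstream of Tead2, Lats2, Mkl1 or Mkl2. Each line below gives 60 bases, 5′ to 3′ on the gene's strand, with the motif in capitals. The Yap1 stretch is chr9:8004705-8004764 (minus strand), that of Wwtr1 is chr3:57576014-57576073 (minus), that of Tead3 is chr17:28350955-28351014 (minus) and that of Srf is chr17:46556210-46556269 (minus).
Yap1: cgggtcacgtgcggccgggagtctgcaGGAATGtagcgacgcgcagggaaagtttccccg
Wwtr1: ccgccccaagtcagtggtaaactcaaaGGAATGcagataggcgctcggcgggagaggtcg
Tead3: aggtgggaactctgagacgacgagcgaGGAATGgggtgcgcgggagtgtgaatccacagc
Srf: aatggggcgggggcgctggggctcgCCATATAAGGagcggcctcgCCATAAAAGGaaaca
A match is a run of letters and not a measured binding site.

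The libraries differed in a way that touches every TAC and swim comparison. Long transcripts were relatively high in all 7 sedentary, sham and MI libraries, with slopes of 0.20 to 0.32 log2 units per doubling of transcript length, and relatively low in all 12 TAC and swim libraries, with slopes of -0.35 to -0.01. Cardiomyocyte slopes were -0.19 to -0.10. Rn45s, the ribosomal RNA precursor, read 120 to 1289 FPKM in the first set of 7 and 361 to 6988 FPKM in the 12. The fit was therefore repeated with a smooth trend on transcript length and GC content removed from each library, and those values are called trend-removed below. Fibroblast markers (8 of 8 genes at FPKM of 1 or more in each fibroblast library) summed to 675 to 2169 FPKM in fibroblasts and 57.9 to 115 FPKM in cardiomyocytes. Macrophage markers were also present in the fibroblast libraries, at 501 to 1683 FPKM summed over 8 genes. Endothelial markers summed to 48.1 to 66.1 FPKM in sedentary and 20.3 to 35.7 in sham fibroblasts. In the 4 day swim group they summed to 21.2 to 28.2 FPKM, within the sham range, and in the 10 day swim group to 28.9 to 43.6. The 3 day TAC sums were 18.2 to 35.5 FPKM, the 10 day TAC sums 62.2 to 125 and the MI sums 35.6 to 43.5. Cardiomyocyte markers summed to 19.4 to 246 FPKM in fibroblasts, and no lymphocyte marker passed the filter described below. No marker of the other lists was at 0 in any library. Of 8 endothelial markers 6 fell and 1 rose after 4 days of swimming and 4 fell after 10 days. After 10 days of TAC 3 rose and 2 fell. The trend-removed fit gave 6 falls after 4 days and 1 after 10 days of swimming, and 3 rises after 10 days of TAC. Of 8 pericyte and smooth muscle markers 5 fell and 1 rose after 4 days of swimming and 2 fell after 10 days. After TAC 3 fell at 3 days, and 4 rose and 2 fell at 10 days, while 3 rose after MI. Trend-removed, 2 fell and 1 rose after 4 days of swimming, and 1 fell and 2 rose after 10 days. In that fit 2 rose after 3 days of TAC, 4 rose after 10 days of TAC and 3 rose after MI. The shares of all genes called are given below. The part of these cells in the results was not tested. In bulk RNA, fewer cells of a type and less RNA per cell cannot be told apart.

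Of the 10 genes, 9 passed the filter of FPKM at least 1 in at least 2 libraries, and Mkl2 did not. A gene was called at an adjusted p under 0.05, by limma's moderated test on log2(FPKM + 1) with Benjamini-Hochberg adjustment over the 9425 genes tested in fibroblasts. Differences are on that log2(FPKM + 1) scale, which understates the change of genes as low as these. After 3 days of TAC, 1 member was higher than in sham (31.3% of all genes tested were) and 4 were lower (25.8% of all genes). After 10 days of TAC, 1 was higher than in sedentary fibroblasts (38.8% of all genes) and 3 were lower (27.0%). After 4 days of swimming 1 was higher (38.2%) and 5 were lower (26.3%), and after 10 days 1 was higher (30.0%) and 3 were lower (13.6%). The median difference of the 9 members was -0.50, -0.32, -0.57 and -0.23 in these comparisons, in that order, beside 0.05, 0.12, 0.13 and 0.14 over all genes. In the trend-removed fit the medians of the 9 were -0.01, 0.01, -0.12 and 0.06. In that fit 2, 3, 2 and 0 of the 9 were lower, beside 18.6%, 18.4%, 16.3% and 6.11% of all genes, and 1 was higher in each, beside 28.0%, 37.6%, 37.7% and 28.0%. After MI none of the 9 was called higher (8.93% of all genes were) or lower (2.34%) than in sedentary fibroblasts by limma, 3 had an unadjusted p under 0.05 (Tead2, Amotl2 and Mkl1), and limma without its trend and robust settings also called 0. In the trend-removed fit 0 of the 9 were called after MI, where 12% of all genes were higher and 3.2% lower. All comparisons of 10 day TAC, MI and both swim groups with sedentary fibroblasts share the same 3 sedentary libraries. The only sham group was taken at 3 days. For 10 day TAC and MI there was no sham of the same time, so effects of an operation cannot be told apart there.

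**Figure D1:**
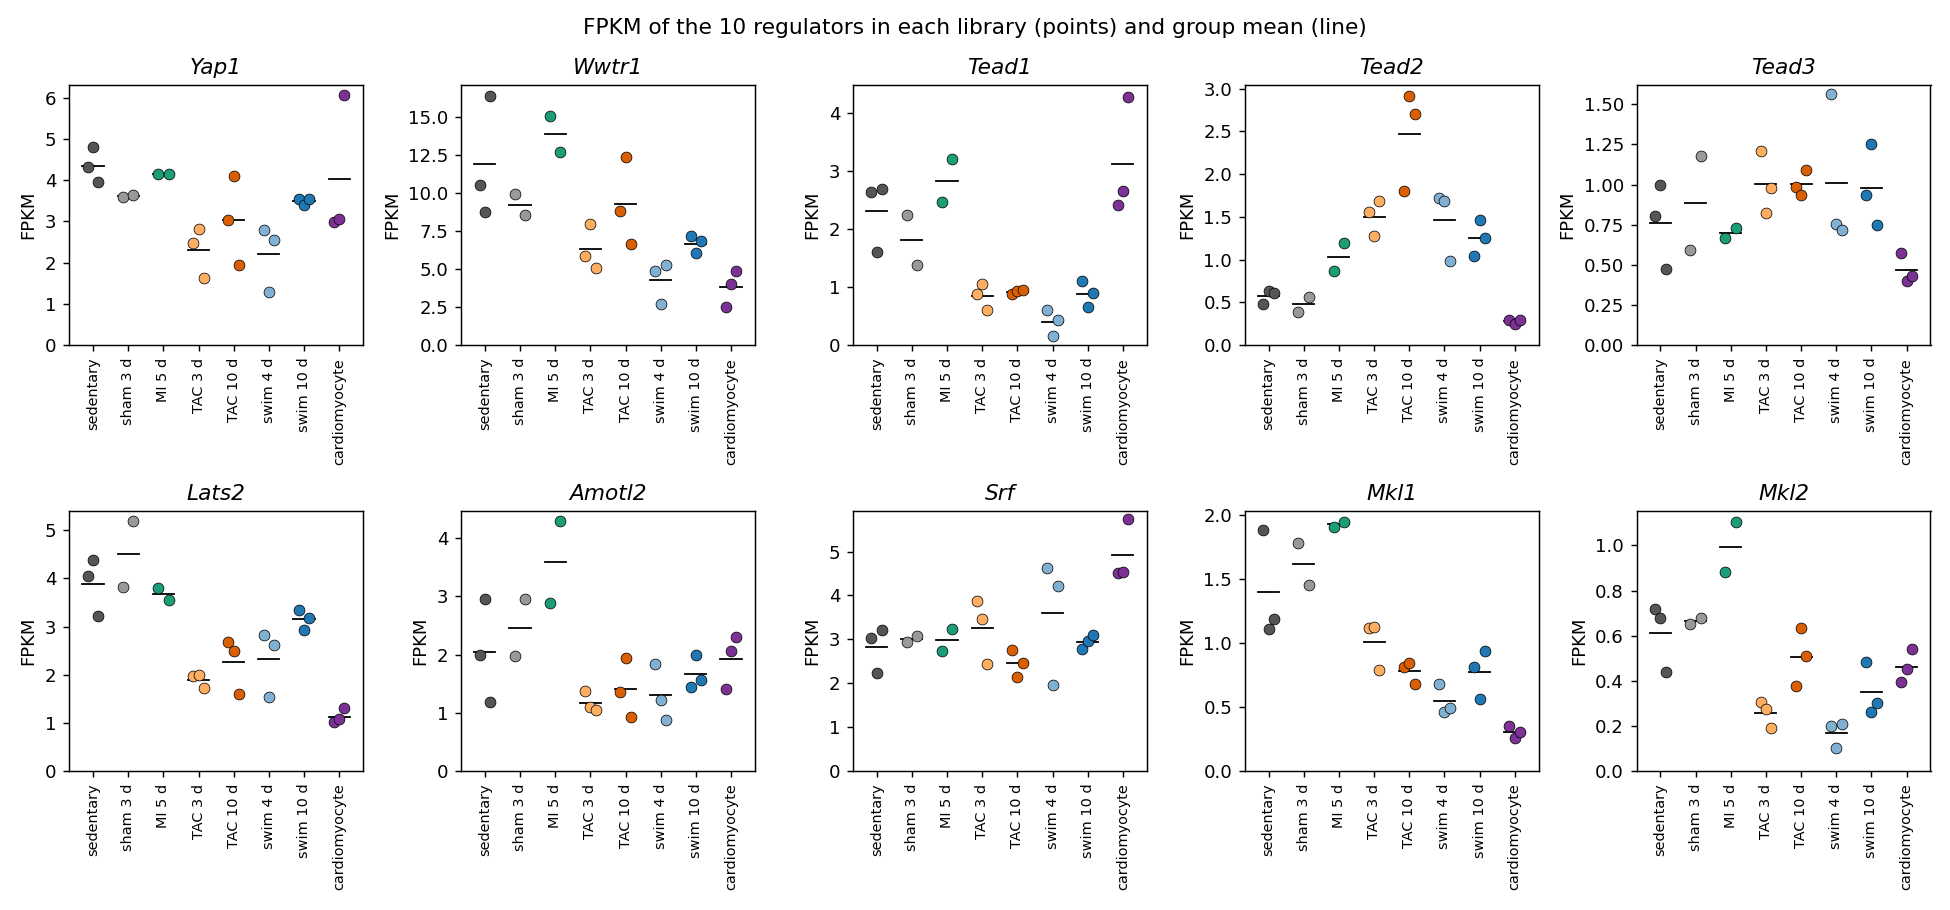
FPKM of each of the 10 genes (vertical axes, each from 0) in every library, by group; points are libraries and lines are group means. Tead2 is the gene whose TAC and swim libraries all lie above its sedentary and sham libraries, while the TAC and swim libraries of Tead1 all lie below its sedentary, sham and MI libraries.

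The TEAD factors moved in opposite directions: on FPKM, Tead2 rose and Tead1 fell in all 4 comparisons of TAC or swimming with their controls, and with the length and GC trend removed the rise of Tead2 was still called and the fall of Tead1 was not. Positions here and below are on mm10. Tead2 (chromosome 7, 45215753 to 45233619, plus strand) read 0.478, 0.631 and 0.611 FPKM in the 3 sedentary libraries and 0.384 and 0.567 after sham. It read 1.55, 1.27 and 1.68 FPKM after 3 days of TAC, and 1.81, 2.91 and 2.70 after 10 days. Every TAC library lay above every sedentary and sham library, and the 10 day libraries all lay above the 3 day ones. The difference was 0.76 at 3 days (SE 0.164, adjusted p = 0.000856 by limma) and 1.13 at 10 days (SE 0.147, adjusted p = 7.57e-06), where mean FPKM was 2.47 ± 0.586 (SD, n = 3) against 0.573 ± 0.0836 (SD, n = 3), a ratio of 4.31. Between the TAC times it was 0.46 (adjusted p = 0.0709 by limma), which passed without the 10 day replicate 1 (0.61, adjusted p = 0.0233) and not otherwise. With swimming Tead2 read 1.73, 1.69 and 0.986 FPKM at 4 days and 1.04, 1.46 and 1.26 at 10 days, again above all sedentary libraries. These differences were 0.64 (SE 0.147, adjusted p = 0.00116 by limma) and 0.52 (SE 0.147, adjusted p = 0.00939), the second falling to 0.41 (adjusted p = 0.0547) when libraries were scaled to the same median. The 2 MI libraries, at 0.865 and 1.20 FPKM, also lay above all sedentary libraries, but did not pass the test (adjusted p = 0.177 by limma). Tead2 was still called with the trend removed, at 0.64, 0.94, 0.65 and 0.57 for 3 and 10 day TAC and 4 and 10 day swimming.

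Tead1, the most abundant TEAD gene in sedentary fibroblasts and in heart muscle cells (chromosome 7, 112679320 to 112906805, plus strand), moved the other way. It read 2.64, 1.60 and 2.69 FPKM in sedentary, 2.25 and 1.38 in sham and 2.46 and 3.21 in MI libraries. After TAC it read 0.890, 1.06 and 0.601 FPKM at 3 days and 0.877, 0.940 and 0.944 at 10 days. After swimming it read 0.601, 0.162 and 0.433 FPKM at 4 days and 1.11, 0.654 and 0.895 at 10 days. The 12 TAC and swim libraries did not overlap the 7 others. Tead1 fell by 0.60 after 3 days of TAC (SE 0.185, adjusted p = 0.0115 by limma), by 0.77 after 10 days (adjusted p = 0.000704), by 1.24 after 4 days of swimming (adjusted p = 8.67e-06) and by 0.80 after 10 days (adjusted p = 0.0011). The 3 day TAC call was lost without sham replicate 1 (-0.37, adjusted p = 0.186 by limma) and without TAC replicate 3 (-0.50, adjusted p = 0.0514). At 9964 nucleotides, the Tead1 transcript is the longest of the 10 genes, against 3396 for Tead2. None of the 4 Tead1 differences passed with the trend removed: they were 0.30 (adjusted p = 0.181 by limma) and 0.05 (adjusted p = 0.823) for 3 and 10 day TAC, turned in sign, and -0.30 (adjusted p = 0.13) and -0.14 (adjusted p = 0.516) for 4 and 10 day swimming. The part of transcript length in the Tead1 result was not tested beyond this.

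Tead3 (chromosome 17, 28331673 to 28350805, minus strand) and Tead4 completed the family. Tead3 stayed between 0.475 and 1.56 FPKM in all fibroblast libraries and was not called in any fibroblast comparison. Its TAC and swim groups overlapped their controls, while both MI libraries, at 0.667 and 0.729 FPKM, lay below all 10 day TAC libraries (0.933 to 1.09; adjusted p = 0.269 by limma). Tead4 was listed at 0.0735 to 0.588 FPKM and was below the filter, its 2 highest values being 10 day TAC libraries. Tead1 made up 65.3%, 46.2% and 68.9% of summed Tead1 to Tead4 FPKM in sedentary, 68.2% and 42.1% in sham, and 59.2% and 60.4% in MI libraries. Tead2 made up 11.8%, 18.2% and 15.7% in sedentary, 11.7% and 17.3% in sham, and 20.8% and 22.5% in MI libraries. After TAC the Tead2 share was 40.0%, 38.8% and 49.4% at 3 days and 46.6%, 54.2% and 51.9% at 10 days, above Tead1 in every library. It was 42.5%, 63.0% and 43.6% after 4 days of swimming, and 32.3%, 41.8% and 41.2% after 10 days, where swim replicate 1 alone had slightly more Tead1 (34.5%). Summed TEAD FPKM was 3.46 to 4.04 in sedentary, 2.27 to 5.37 in TAC and swim, and 4.16 and 5.32 in MI libraries. The TAC and swim range of the sum included the sedentary range, and both MI sums lay above it. All these shares and sums are of FPKM as deposited, with no trend removed. They set a transcript of 9964 nucleotides (Tead1) beside one of 3396 (Tead2), in libraries whose length slopes differed. With the trend removed, the Tead1 fall was called in none of the 4 TAC and swim comparisons. The part of length in the shares was not tested.

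**Figure D2:**
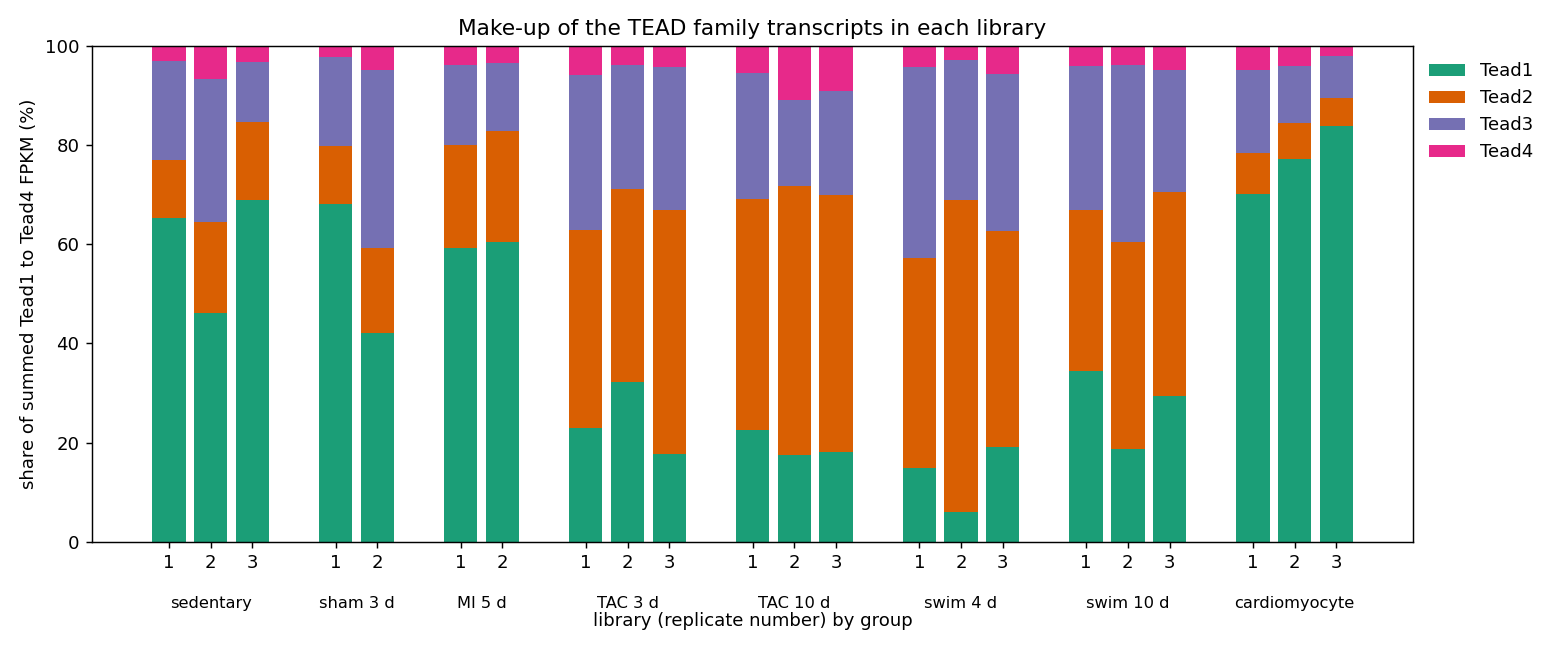
Share of summed Tead1 to Tead4 FPKM held by each gene (vertical axis, percent), 1 bar per library, by group. Tead1 holds 42.1% to 68.9% in sedentary, sham and MI fibroblasts and 70.0% to 83.8% in cardiomyocytes, while Tead2 holds 32.3% to 63.0% in the 12 TAC and swim libraries. The shares are of FPKM as deposited, without removal of the length and GC trend.

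Wwtr1 was the most abundant member in all 19 fibroblast libraries and was lower in swimming mice. Wwtr1, which encodes the coactivator TAZ (chromosome 3, 57455644 to 57575910, minus strand), read 10.6, 8.77 and 16.4 FPKM in sedentary libraries. It read 4.91, 2.74 and 5.26 FPKM after 4 days of swimming and 7.16, 6.05 and 6.87 after 10 days. All 6 swim libraries lay below the 3 sedentary ones. Wwtr1 fell by 1.28 after 4 days (SE 0.251, adjusted p = 0.000295 by limma) and by 0.71 after 10 days (SE 0.251, adjusted p = 0.0301). The 10 day call was lost without any filter (adjusted p = 0.0574 by limma), with the trend removed (-0.34, adjusted p = 0.233), and in 4 of the 6 fits that left out a library (sedentary replicates 1 and 3, swim replicates 2 and 3), where the value was as small as -0.47. The 4 day difference was -0.67 with the trend removed (adjusted p = 0.014 by limma). After TAC the values were 5.86, 7.99 and 5.12 FPKM at 3 days, all below the sham values of 9.93 and 8.55, and 8.83, 12.4 and 6.69 at 10 days, which overlapped sedentary. Neither TAC difference passed (adjusted p = 0.137 and 0.268 by limma). With the trend removed both turned in sign, at 0.10 for 3 days (adjusted p = 0.747 by limma) and 0.30 for 10 days (adjusted p = 0.244). MI libraries read 15.1 and 12.7 FPKM, within the sedentary range.

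Yap1, the coactivator gene paired with Wwtr1 (chromosome 9, 7932001 to 8004596, minus strand), was called lower after 4 days of swimming and in no other fibroblast comparison. It read 4.31, 4.79 and 3.96 FPKM in sedentary and 2.80, 1.28 and 2.56 in 4 day swim libraries, which did not overlap. It fell by 0.77 (SE 0.207, adjusted p = 0.00374 by limma), a value of -0.11 with the trend removed (adjusted p = 0.576). The 10 day swim libraries, at 3.55, 3.41 and 3.54 FPKM, also lay below all sedentary libraries but close to them (adjusted p = 0.349 by limma). TAC libraries read 2.49, 2.81 and 1.64 FPKM at 3 days, below the sham values of 3.59 and 3.64, and 3.04, 4.10 and 1.94 at 10 days. The adjusted p was 0.0767 at 3 days and 0.068 at 10 days by limma, and the 10 day difference of -0.44 passed without TAC replicate 2 (-0.63, adjusted p = 0.0176) and with libraries scaled to the same median (-0.51, adjusted p = 0.0227), and was 0.18 (adjusted p = 0.36) with the trend removed. The 3 day TAC difference of Yap1 was 0.14 with the trend removed (adjusted p = 0.55 by limma), turned in sign. Wwtr1 exceeded Yap1 in all 19 fibroblast libraries, by 1.75 to 4.16 times on the FPKM scale.

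Lats2, the kinase that restrains YAP and TAZ, was lower after TAC at both times and after 4 days of swimming. Lats2 (chromosome 14, 57689662 to 57746123, minus strand) read 1.98, 1.99 and 1.72 FPKM 3 days after TAC, against 3.82 and 5.20 after sham. It read 2.68, 2.49 and 1.59 FPKM 10 days after TAC, against 4.06, 4.38 and 3.22 in sedentary mice. Swimming libraries read 2.83, 1.55 and 2.61 FPKM at 4 days and 3.35, 2.92 and 3.18 at 10 days. Of the TAC and swim groups, only the 10 day swim group overlapped its control. The MI libraries, at 3.80 and 3.54 FPKM, lay within the sedentary range. Lats2 fell by 0.92 after 3 days of TAC (SE 0.195, adjusted p = 0.000788 by limma), by 0.60 after 10 days (adjusted p = 0.00668) and by 0.57 after 4 days of swimming (adjusted p = 0.00899). After removal of the trend the TAC values were -0.57 (adjusted p = 0.00587 by limma) and -0.33 (adjusted p = 0.0455), and the swim value -0.12 (adjusted p = 0.446). The 4 day swim call was also lost when only the 2 groups were fitted (adjusted p = 0.0529 by limma) and without swim replicate 2 (-0.39, adjusted p = 0.0613). A second annotated gene, Gm49361, overlaps Lats2 on the same strand, and how the authors shared reads between them is not given in the sources used here.

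Amotl2, an angiomotin family member that binds YAP and is itself a YAP target (chromosome 9, 102717804 to 102733417, plus strand), was called lower after 3 days of TAC. It read 1.38, 1.10 and 1.05 FPKM there and 1.97 and 2.96 after sham, without overlap. It fell by 0.66 (SE 0.242, adjusted p = 0.0272 by limma), and by 0.55 with the trend removed (adjusted p = 0.0449). This call was lost with no filter (adjusted p = 0.0536 by limma) and without sham replicate 2 (-0.45, adjusted p = 0.219). Dropping the second or the third TAC library also ended it (-0.64 and -0.62, adjusted p = 0.0577 and 0.0698 by limma). Sedentary libraries spread from 1.18 to 2.96 FPKM, and without the lowest of them, replicate 3, Amotl2 was called lower after 10 days of TAC (-0.54, adjusted p = 0.0414 by limma) and after 4 days of swimming (-0.60, adjusted p = 0.0257). The MI values of 2.89 and 4.30 FPKM were among the highest for the gene but overlapped sedentary replicate 2 (0.62, adjusted p = 0.116 by limma); without that library the difference was 0.83 (adjusted p = 0.039).

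Srf was not called in any of the 11 fibroblast comparisons on FPKM. The gene (chromosome 17, 46546839 to 46556162, minus strand), whose promoter holds the 2 CArG boxes shown above, ranged from 1.96 to 4.62 FPKM over the 19 fibroblast libraries. Sedentary libraries read 3.04, 2.23 and 3.22 FPKM, and the 4 day swim group spanned both ends of the fibroblast range, at 4.62, 1.96 and 4.23. The 95% interval of the difference from the control was -0.41 to 0.55 for 3 day TAC, -0.57 to 0.28 for 10 day TAC, -0.21 to 0.65 for 4 day swimming, -0.38 to 0.48 for 10 day swimming and -0.42 to 0.54 for MI. Srf was called lower after 10 days of TAC with the trend removed (-0.68, adjusted p = 0.0207 by limma), and without swim replicate 2 it was called higher after 4 days of swimming (0.51, adjusted p = 0.0155).

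Mkl1, which encodes MRTF-A, was lower in all 4 TAC and swim comparisons. Mkl1 (chromosome 15, 80977765 to 81190757, a listed locus that also spans Sgsm3 on the other strand; whether counting used strand is not given in the sources used here) read 1.89, 1.11 and 1.19 FPKM in sedentary and 1.79 and 1.45 in sham libraries. It read 1.12, 1.13 and 0.786 FPKM after 3 days of TAC and 0.812, 0.842 and 0.683 after 10 days. It read 0.684, 0.460 and 0.493 FPKM after 4 days and 0.813, 0.561 and 0.941 after 10 days of swimming. Each of these 4 groups lay wholly below its control, which was sham for 3 day TAC and sedentary for the others. The MI libraries, at 1.91 and 1.95 FPKM, lay above all sedentary ones without passing (adjusted p = 0.194 by limma). Mkl1 fell by 0.38 (adjusted p = 0.0282 by limma) and 0.42 (adjusted p = 0.00842) at 3 and 10 days of TAC, and by 0.62 (adjusted p = 0.000422) and 0.43 (adjusted p = 0.012) at 4 and 10 days of swimming, with SE 0.127 to 0.142. After removal of the trend the values were -0.31 (adjusted p = 0.0788 by limma), -0.46 (adjusted p = 0.00519), -0.39 (adjusted p = 0.0158) and -0.21 (adjusted p = 0.209) in the same order. Leaving out sedentary replicate 1, the highest sedentary library, took the 10 day TAC value to -0.28 (adjusted p = 0.0692 by limma) and the 10 day swim value to -0.29 (adjusted p = 0.0898). The 10 day swim call was also lost without swim replicate 2 (-0.34, adjusted p = 0.0733 by limma), and the 3 day TAC call without sham replicate 1 (-0.29, adjusted p = 0.197) and when the third TAC library was dropped (-0.30, adjusted p = 0.112).

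Mkl2, which encodes MRTF-B (chromosome 16, 13256481 to 13417529, plus strand), reached FPKM 1 in a single library. It read 0.720, 0.677 and 0.439 FPKM in sedentary, 0.651 and 0.679 in sham and 0.880 and 1.10 in MI libraries. It read 0.306, 0.275 and 0.189 FPKM after 3 days and 0.378, 0.635 and 0.508 after 10 days of TAC, and 0.198, 0.101 and 0.206 after 4 days and 0.484, 0.260 and 0.303 after 10 days of swimming. Both MI libraries lay above all others, and the 3 day TAC and 4 day swim libraries below all control libraries. In a fit with no filter, over 20787 genes, the difference was -0.41 for 3 day TAC (adjusted p = 0.00442 by limma) and -0.10 for 10 day TAC (adjusted p = 0.425). It was -0.46 for 4 day swimming (adjusted p = 0.000632 by limma), -0.26 for 10 day swimming (adjusted p = 0.0449) and 0.31 for MI (adjusted p = 0.0681). Of all genes in that fit, 3775, 3894, 4064 and 2127 were lower in the 4 TAC and swim comparisons, in that order, and 1403 were higher after MI. The Mkl2 transcript has 8295 nucleotides. No trend-removed value was fitted for it, so the part of length in its differences was not tested.

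**Figure D3:**
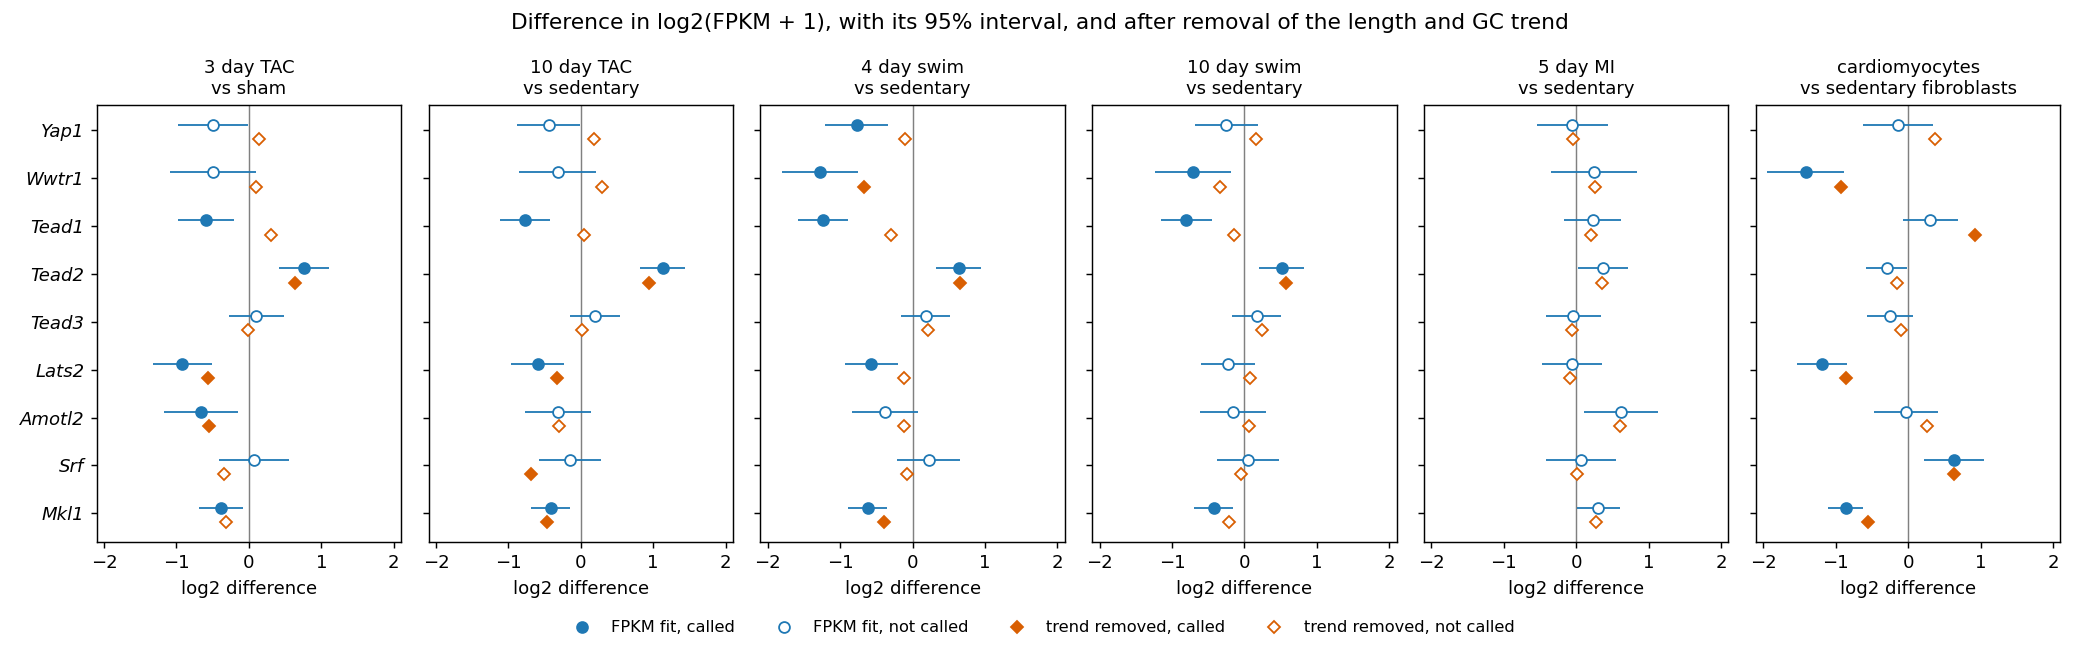
Difference in log2(FPKM + 1) of the 9 genes tested (horizontal axes) in 6 comparisons; circles with 95% intervals are the fit on FPKM, diamonds the values with the length and GC trend removed, and filled symbols are called. Tead2 is called in both fits in the 4 TAC and swim panels, whereas the Tead1 diamonds of those 4 panels lie between -0.30 and 0.30. In the cardiomyocyte panel the Tead1 diamond is at 0.92 and called.

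Pressure overload and swimming were compared directly, at the shorter times and at 10 days. After 4 days of swimming against 3 days of TAC, limma called none of the 9 members (5.20% of all genes were higher and 3.66% lower), 2 had an unadjusted p under 0.05 (Tead1 and Mkl1), and limma without trend and robust settings called 0. At 10 days none was higher with swimming (10.9% of all genes were) and 1 was lower (13.2%): Tead2, at 1.04 to 1.46 FPKM against 1.81 to 2.91 after TAC, without overlap (-0.61, SE 0.147, adjusted p = 0.00718 by limma). The value was -0.37 with the trend removed (adjusted p = 0.0658 by limma). In that fit Lats2 was called higher with swimming (0.41, adjusted p = 0.0384 by limma) and Wwtr1 lower (-0.64, adjusted p = 0.0427), neither of which passed on FPKM (adjusted p = 0.127 and 0.252). Trend-removed, 9.94% of all genes were higher with swimming and 11.5% lower.

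MI fibroblasts were set against 10 day TAC fibroblasts, the 2 injuries compared at unequal times. Here 4 members were higher after MI (27.1% of all genes were) and 1 was lower (30.1%), with a median over the 9 of 0.54 beside -0.01 over all genes. Tead1 was higher by 0.99 (SE 0.185, adjusted p = 0.000317 by limma), Amotl2 by 0.94 (adjusted p = 0.00364), Mkl1 by 0.72 (adjusted p = 0.00047) and Lats2 by 0.54 (adjusted p = 0.0263), while Tead2 was lower (-0.76, adjusted p = 0.000951). The libraries of the groups did not overlap for any of these 5. With the trend removed Amotl2 (0.90), Mkl1 (0.74) and Tead2 (-0.59) were still called, Srf was added (0.69, adjusted p = 0.0432 by limma), and Tead1 (0.16, adjusted p = 0.498) and Lats2 (0.25, adjusted p = 0.193) were not. In that fit 17.3% of all genes were higher after MI and 24.7% lower. The Lats2 call was also lost without TAC replicate 3 or either MI library (0.38 to 0.58), and that of Amotl2 without MI replicate 2 (0.71, adjusted p = 0.0694 by limma). Without TAC replicate 2, Yap1 (0.58, adjusted p = 0.0464 by limma) and Wwtr1 (0.77, adjusted p = 0.0343) were called higher as well.

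Time and the operation itself were compared as well. Between 10 and 3 days of TAC limma called none of the 9 (4.42% of all genes were higher and 2.18% lower), 1 had an unadjusted p under 0.05 (Tead2), and limma without trend and robust settings called 0. Between 10 and 4 days of swimming limma called none (0.0106% higher and 0.308% lower), and the other settings called 0. Yap1, Wwtr1 and Tead1 had unadjusted p under 0.05. All 10 day libraries of these genes, and of Lats2 and Mkl2, lay above all 4 day libraries. How many of all genes separated in this way was not counted. Over 9343 genes, this difference had a rank correlation of 0.51 with transcript length. With the trend removed the differences of Yap1, Wwtr1 and Tead1 were 0.275, 0.331 and 0.155 (adjusted p = 0.358, 0.398 and 0.615 by limma). That of Lats2 was 0.207 (adjusted p = 0.404 by limma), and Mkl2 was not fitted. Between sham and sedentary fibroblasts limma called none of the 9 (0.0212% of all genes higher and 0% lower), none had an unadjusted p under 0.05, and the other settings called 0.

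Cardiomyocytes differed from sedentary fibroblasts in 4 of these regulators. Of the 9 genes, 1 was higher (38.7% of the 10371 genes tested in all 22 libraries were) and 3 were lower (38.6%). Srf read 4.52, 4.54 and 5.74 FPKM in cardiomyocytes, above all sedentary fibroblast libraries (0.63, SE 0.198, adjusted p = 0.00678 by limma). Wwtr1 read 2.51, 4.05 and 4.89 FPKM, Lats2 1.02, 1.07 and 1.30, and Mkl1 0.350, 0.258 and 0.306, all below every sedentary fibroblast library. Their differences were -1.41 (adjusted p = 4.88e-05 by limma), -1.19 (adjusted p = 1.96e-06) and -0.86 (adjusted p = 1.58e-06), and all 4 genes were also called with the trend removed. Tead1 read 2.42, 2.66 and 4.28 FPKM, which overlapped fibroblasts (0.31, adjusted p = 0.127 by limma), and was called higher with the trend removed (0.92, adjusted p = 9.07e-05). Tead2, at 0.293, 0.252 and 0.295 FPKM, lay below all fibroblast libraries without passing (-0.30, adjusted p = 0.0541 by limma), and passed with libraries scaled to the same median (-0.34, adjusted p = 0.0496) or with a pseudocount of 0.1 (-0.82, adjusted p = 0.00376). Tead3 was called lower without sedentary replicate 3 alone (-0.37, adjusted p = 0.0441 by limma). Wwtr1 was 0.806 to 1.33 times Yap1 in cardiomyocytes, and Mkl1 was 0.565 to 0.891 times Mkl2, against 1.33 to 4.54 times in fibroblasts.

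The Hippo pathway has other members besides the 10, and of 26 listed kinases, scaffolds and cofactors, 20 were tested. The shares and medians over all genes are those given above for each comparison. After 3 days of TAC, 15 fell and 0 rose (median -0.73). After 10 days, 15 fell and 1 rose (-0.71). After 4 days of swimming 15 fell and 0 rose (-0.67), and after 10 days 8 fell and 0 rose (-0.40). After MI limma called none in either direction (median 0.13, beside 0.10 over all genes), 1 had an unadjusted p under 0.05, and limma without trend and robust settings called 0. In the trend-removed fit 7, 5, 8 and 3 of the 20 fell and 1 rose in each of the 4 TAC and swim comparisons. Map4k4, a kinase that acts on LATS, fell from 9.40 ± 2.67 FPKM in sham (SD, n = 2) to 2.56 ± 0.861 after 3 days of TAC (SD, n = 3; -1.56, adjusted p = 0.000261 by limma). It fell by 1.40 after 10 days of TAC, 2.05 after 4 days and 1.39 after 10 days of swimming, and was called in all 4 with the trend removed. Frmd6, a membrane scaffold of the pathway, fell by 1.30 and 1.42 at 3 and 10 days of TAC, and Sav1, which activates the upstream kinases, fell by 0.79 after 10 days. With the trend removed Frmd6 did not pass at 3 days (-0.88, adjusted p = 0.052 by limma), nor Sav1 at 10 days (-0.26, adjusted p = 0.237).

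Of the 22 listed target genes of YAP and TEAD, 19 were tested, and more fell than rose in each of the 4 TAC and swim comparisons with controls. After 3 days of TAC 11 fell and 3 rose (median -0.76), after 10 days 12 fell and 2 rose (-0.80), after 4 days of swimming 9 fell and 1 rose (-0.66), after 10 days 7 fell and 2 rose (-0.28), and after MI 3 fell and 2 rose (0.03). With the trend removed 8 fell and 2 rose, 10 and 1, 8 and 1, 2 and 1, and 2 and 4, in that order. The medians were then -0.28, -0.50, -0.46, -0.07 and 0.01, beside 0.067, 0.147, 0.164, 0.154 and 0.105 over all genes. Tgfb2, a transforming growth factor, was lower in all 4 TAC and swim groups, from 8.11 ± 2.45 FPKM in sedentary (SD, n = 3) to 1.06 ± 0.351 after 10 days of TAC (SD, n = 3; -2.12, adjusted p = 0.000157 by limma). Ccdc80, a matrix protein, fell by 2.23, 1.70, 1.49 and 0.90 in 3 day TAC, 10 day TAC, 4 day swim and 10 day swim. With the trend removed neither passed after 10 days of swimming (Tgfb2 -0.84, adjusted p = 0.0695 by limma; Ccdc80 -0.70, adjusted p = 0.0595). Axl, a receptor tyrosine kinase, rose by 0.57 after 3 days of TAC and by 0.81 and 0.72 at 4 and 10 days of swimming. Ctgf, a matricellular protein used as a YAP readout, rose from 171 ± 90.4 FPKM (SD, n = 2) to 364 ± 146 (SD, n = 3) after 3 days of TAC (1.10, adjusted p = 0.0497 by limma), but not with the trend removed (0.96, adjusted p = 0.0964). In 10 day swim against 10 day TAC, 7 targets were higher and 3 lower, among them Areg, an EGF receptor ligand (2.46), Gadd45b (1.44) and Gadd45a (1.38), both stress-response genes.

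The contractile and adhesion genes that SRF and MRTF control were counted next. Of the 26 actin and adhesion targets tested, 7 rose and 6 fell after 3 days of TAC, 10 rose and 7 fell after 10 days, 4 rose and 8 fell after 4 days of swimming, 3 rose and 5 fell after 10 days, and 7 rose and 0 fell after MI. With the trend removed 4 rose and 3 fell, 5 and 6, 2 and 7, 1 and 5, and 8 and 0, in that order. The median after 10 days of TAC was 0.25 on FPKM and 0.12 with the trend removed. After MI 12% of all genes were higher and 3.2% lower with the trend removed. Tagln, an actin-binding protein of contractile cells, rose by 3.18 after 3 days of TAC, 2.53 after 10 days and 3.95 after MI, where it read 26.9 and 74.6 FPKM against 1.21 to 3.43 in sedentary libraries. Acta2, smooth muscle actin, rose by 2.16 after MI (adjusted p = 0.00345 by limma). Csrp1, a muscle LIM protein, rose by 1.39 and 1.59 at 3 and 10 days of TAC and by 1.52 and 0.93 at 4 and 10 days of swimming. Vcl, the adhesion protein vinculin, fell by 1.12, 1.04, 1.48 and 0.98 in the same order. Tagln and Acta2 were lower after 10 days of swimming than of TAC (-1.87 and -1.62). Summed pericyte and smooth muscle markers were 24.2 to 33.4 FPKM in sedentary, 30.2 to 43.8 in MI, 27.4 to 45.6 in 10 day TAC and 15.8 to 23.8 in 10 day swim libraries, and their part in these differences was not tested. On FPKM Srf itself was called in none of these comparisons. With the trend removed it was called lower after 10 days of TAC (-0.68, adjusted p = 0.0207 by limma).

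All 10 listed immediate early targets of SRF were tested. After 4 days of swimming 6 rose and 0 fell (median 1.18), and after 10 days 2 rose and 0 fell (0.53). After 3 days of TAC 1 fell and 0 rose (-0.45), after 10 days of TAC 1 rose and 0 fell (0.13), and after MI 1 fell and 0 rose (-0.56). With the trend removed 6 rose after 4 days and 1 after 10 days of swimming. In each TAC group and after MI 2 fell and 0 rose in that fit. The median after 10 days of TAC was 0.13 in that fit too, and 18.4% of all genes were lower there. Ier2 rose by 1.63 at 4 days of swimming (adjusted p = 2.23e-06 by limma) and by 1.20 at 10 days, and was called in both with the trend removed. Dusp1, a phosphatase of MAP kinases, rose by 1.31 at 4 days. Egr1, a growth response factor, fell by 1.27 after 3 days of TAC and by 1.60 after MI.

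**Figure D4:**
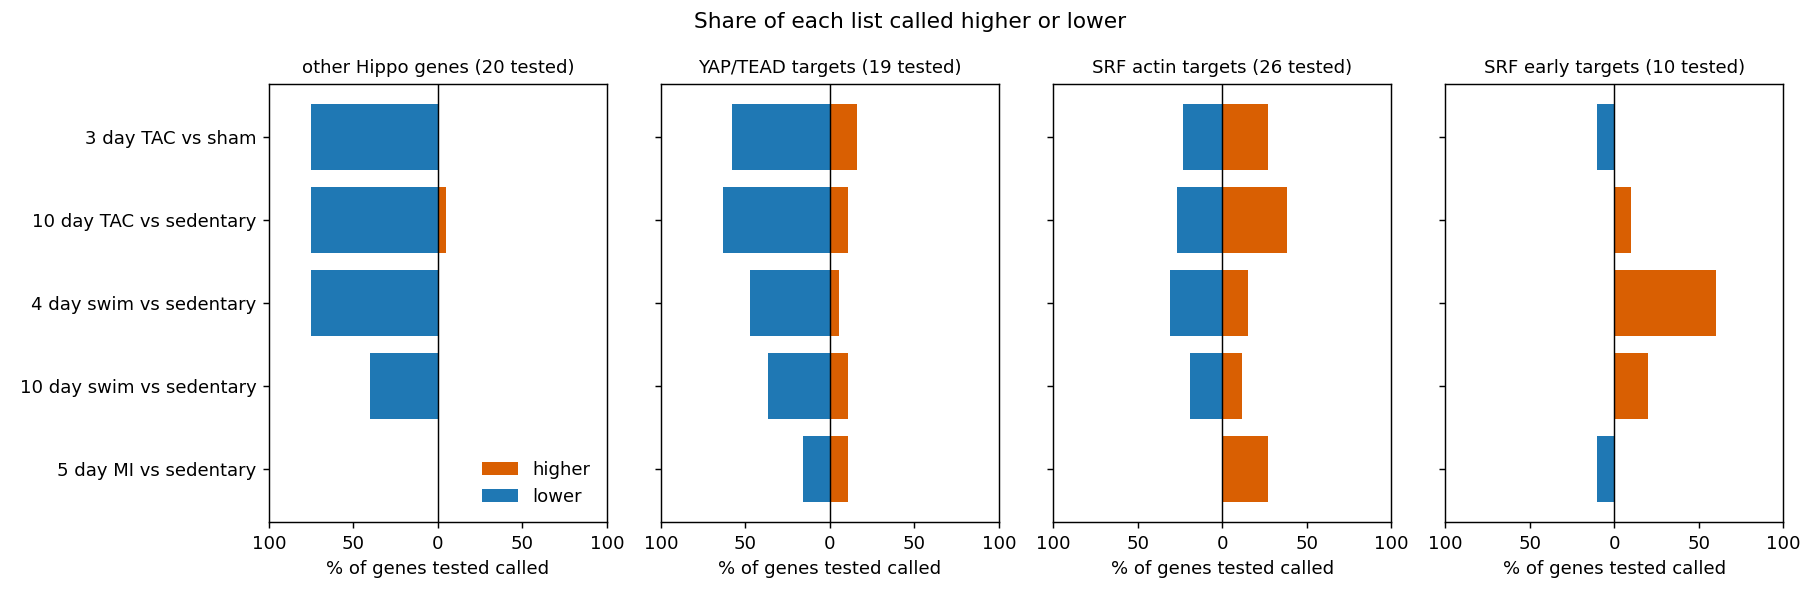
Percent of the tested genes of each list (horizontal axes) called higher (orange, right) or lower (blue, left), for 5 comparisons with controls. Counts are from the fit on FPKM. The other Hippo genes lie to the left in the 4 TAC and swim rows, with 8 to 15 of 20 lower. Of all genes 13.6% to 27.0% were lower in those rows. Trend-removed, 3 to 8 of the 20 were lower, beside 6.11% to 18.6% of all genes. The other Hippo genes are at 0 in the MI row (1 higher when trend-removed). The early SRF targets lie to the right for 4 day swimming, at 6 of 10 in both fits. Of all genes 38.2% were higher there on FPKM and 37.7% trend-removed.

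The genes whose log2(FPKM + 1) followed each member most closely over the 19 fibroblast libraries are given as a description, since these libraries share groups and the length trend. Tead1 was most like Tulp4 (Pearson's r = 0.974), Piezo1, a mechanically gated ion channel (0.971), and Ccnd2 (0.969), whose longest transcripts have 9687, 8219 and 6330 nucleotides. Tead2 was most like Tmem98 (0.963), Lats2 like Elf2 (0.989), Mkl1 like Prkca (0.954), Yap1 like Yes1 (0.917), the kinase after which YAP is named, and Wwtr1 like Lrrc8c (0.938). Srf was most like its target Actg1, cytoplasmic gamma actin (0.752), and Tead3 like Plekhh3 (0.807). Among the members, Tead1 went with Mkl1 (0.910) and Wwtr1 (0.874), and Tead2 went against Lats2 (-0.755).

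The authors' deposited table of comparisons was read beside these results, taking its group names to mean the groups above. It marks 21 of the 120 pairs of gene and comparison as significant. Of the 108 pairs tested in both, 17 were called in both, 3 in the authors' deposited table alone and 12 here alone. In the authors' deposited table, Tead2 is significant in all 4 TAC and swim comparisons (log2 ratios 1.55, 2.06, 1.29 and 1.09), while Lats2 is significant in none of the 4 (q = 0.357 and 0.498 for TAC). Wwtr1 is not significant there after 4 or 10 days of swimming (q = 0.0794 and 0.259). Neither is Yap1 after 4 days of swimming (q = 0.131), nor Tead1 after 3 days of TAC (q = 0.123). Mkl1 is significant after 4 days of swimming (q = 0.00959). It is not after 10 days of swimming (q = 0.0794) or after 3 or 10 days of TAC (q = 0.305 and 0.107). The authors' deposited table also marks Mkl2 as lower after 4 days of swimming (log2 ratio -1.69, q = 0.000773), Amotl2 as higher after MI (0.92, q = 0.0437) and Tead1 as lower after 4 days of swimming than after 3 days of TAC (-1.09, q = 0.0292). It marks Tead1 as higher after 10 than after 4 days of swimming as well (1.08, q = 0.0241).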

How the data were processed

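Poly-A RNA was made into stranded libraries and sequenced, per the labels' protocols. The authors deposited FPKM per gene and library on mm10 from Cufflinks 2.0.2, per the submitters' processing notes (aligner and annotation: not given in the sources used here). Their own comparisons, deposited by the authors, hold log2 fold changes, p-values and q-values. The 44 columns of confidence bounds were not used. The 10 members, the gene lists and the comparisons were chosen with earlier results of these data known.

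The limma package 3.58.1 in R 4.3.3, with its trend and robust options, was run on log2(FPKM + 1), 1 mean per group, for genes at FPKM 1 or more in 2 libraries: 9425 genes over the 19 fibroblast libraries and 10371 over all 22. The fit was tested on simulated data. No read counts were used, so absolute depth is unknown. The smallest FPKM steps gave a depth relative to the shallowest of 1.0 to 3.62 in the 19 libraries with a clear step, and roughly 31 to 500 fragments behind Tead2. Listed starts are 0-based and were raised by 1. Transcript lengths and GC content came from GENCODE M21 (22970 genes), with older symbols matched through RefSeq synonyms. For naming, the rule took up to 3 called genes per direction, list and comparison whose higher group reached FPKM 5, and up to 3 most alike genes per member. Titles of both MI libraries and of the third sedentary library of each cell type carry a date of unstated meaning; MI has no undated library, so date and group cannot be told apart there. A further gene list is not reported here.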

Additional observations from a re-analysis of the deposited data

Results flagged for a closer look

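Set against the same sedentary libraries, 10 day TAC and 10 day swimming differed for 1 of the 9 tested regulators by the test of the difference itself (limma): Tead2, at -0.61 log2 units for swimming relative to TAC (adjusted p = 0.00718, all 3 swim libraries below all 3 TAC libraries; 10.9% of all genes were higher and 13.2% lower). With the trend on length and GC removed this call was lost (-0.37, adjusted p = 0.0658 by limma), and Lats2 (0.41) and Wwtr1 (-0.64) were called. By the same kind of test, 5 day MI and 10 day TAC differed for 5 of the 9, where 27.1% of all genes were higher and 30.1% lower: Tead1 (0.99), Amotl2 (0.94), Mkl1 (0.72) and Lats2 (0.54) were higher after MI and Tead2 was lower (-0.76), in each case with both MI libraries beyond all 3 TAC libraries (adjusted p = 0.000317, 0.00364, 0.00047, 0.0263 and 0.000951, in that order). The MI and TAC times differ, and 9343 genes with a known transcript length had a rank correlation of 0.55 between this difference and length, beside 0.23 for 10 day swimming against 10 day TAC. The rank correlations with GC content were -0.41 and -0.42. After the same removal Amotl2 (0.90), Mkl1 (0.74) and Tead2 (-0.59) still differed between MI and TAC, and Tead1 (0.16) and Lats2 (0.25) did not pass. The part of time was not tested.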

How the results depend on the processing

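The 29 calls of a member in a comparison kept their direction and call in 148 of 152 refits under the other planned settings (4 lost) and in 145 of 164 that left out a library (19 lost), with 0 reversed. When the trend on length and GC was taken out, 17 of the 29 kept their call, 10 lost it and 2 reversed (Tead1 after TAC, at 0.304 for 3 days and 0.047 for 10 days). Among 16 pairs called under an alternative alone, trend removal also reversed Yap1 (0.178 for 10 day TAC, -0.228 for MI against 10 day TAC), Wwtr1 (-0.041 for MI against 10 day TAC) and Srf (-0.074 for 4 day swimming). The 63 pairs never called are given without a fitted value, apart from intervals for Srf and some trend-removed values. Those are for swimming over time, for Wwtr1 after TAC and for Yap1 after 3 days of TAC. Trend removal called 3 members in 3 day TAC, 3 in 4 day swimming, 1 in 10 day swimming and 2 in 10 day swim against TAC. At FPKM of at least 5 in 2 libraries Wwtr1 alone was tested, so 0 members were called in 3 and 10 day TAC, 1 in 4 and 10 day swimming, 0 in 10 day swim against TAC and MI against TAC, and 1 in cardiomyocytes. A pseudocount of 0.1 called 1 (Mkl1) in 4 day swim against 3 day TAC.

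Leaving out 1 library gave 2 to 5 calls for 3 day TAC, 3 to 5 for 10 day TAC, 6 to 7 for 4 day and 2 to 4 for 10 day swimming, 0 to 1 for MI and for TAC over time, 3 to 7 for MI against TAC, 4 to 5 for cardiomyocytes, 1 for 10 day swim against TAC, and 0 for the other 3 comparisons. A replicate block gave 0 calls for MI and 4 for cardiomyocytes against sedentary fibroblasts, as without it. Same-numbered libraries of the 2 cell types deviated together at r = 0.243, 0.312 and 0.056, so the numbers were not taken to pair them, though each cardiomyocyte library correlated best with the fibroblast library of its number. Scaling to the same median changed all-gene calls from 842 higher and 221 lower to 578 and 438 for MI, and from 2823 and 1284 to 2203 and 1986 for 10 day swimming, where the median gene moved from 0.14 to 0.03 (for MI from 0.10 to -0.03). Where the trend changed a call, the cause was not tested further. Depth limits the lowest members most: the FPKM steps gave roughly 50 to 453 fragments for Tead3 and 41 to 962 for Mkl1, against 691 to 8122 for Wwtr1.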
